A study of Mus musculus with 32 samples.

Results

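Gene expression of CCL206 cells treated with osteoglycin (OGN) was compared with that of CCL206 cells treated with extracellular vesicles (EVs), within the same mice. CCL206 is a mouse lung fibroblast line. The comparison used 8 of the 32 libraries of the series, 4 with OGN and 4 with EVs, paired by the mouse that gave the epithelial cells, and 11681 of the 11818 genes of the table could be tested. The series held Epcam+ epithelial cells and CCL206 fibroblasts, each with vehicle, EVs, soluble factors (SFs) or OGN and with 4 mice per condition.

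In every culture, CCL206 cells whose division had been stopped with mitomycin C were mixed 1:1 with 300000 Epcam+ cells freshly sorted (CD31-/CD45-/CD326+) from naive adult C57BL/6J mice and were grown as organoids in Matrigel. The OGN group received recombinant human osteoglycin at 10 µg/mL. The EVs group received vesicles from MRC5 cells, a human fetal lung fibroblast line, at 1000000000 particles per mL. Exposure lasted 72 h in both groups, after which the gels were dissociated with dispase and trypsin and the cells were separated again with CD326 microbeads, the fraction not held back being the CCL206 sample. Vehicle libraries of the same mice are given below as values beside the comparison. CCL206 is a single line, so the 4 replicates are 4 cultures with the epithelial cells of 4 mice, and each p-value measures the spread between these cultures. In bulk RNA, fewer cells of a type and less RNA per cell cannot be told apart.

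Osteoglycin is a secreted small leucine-rich proteoglycan of the extracellular matrix, whereas EVs are membrane-bound particles that carry proteins, lipids and RNA between cells. Lung fibroblasts next to the alveolus supply growth factors such as Fgf7, Fgf10 and Hgf to alveolar type 2 (AT2) cells, build and cross-link the matrix, and respond to inflammatory signals with chemokines and acute-phase proteins. The epithelial cells with which they shared the gel can express several of these inflammatory genes as well.

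Total counts were 4560414, 12969645, 16103497 and 8125498 for OGN in mice 1 to 4, and 3105312, 3868922, 7605452 and 3906707 for EVs. Levels are given below as CPM, which are counts scaled to a common library size with edgeR's TMM factors, and are compared within a gene only. The difference between OGN and EVs depended on transcript length, and more so in 2 of the mice. Spearman's rho across genes between transcript length and the OGN minus EVs difference was 0.206 in mouse 1, 0.569 in mouse 2, 0.213 in mouse 3 and 0.594 in mouse 4. Against the vehicle libraries, length had a rho of -0.288, -0.584, -0.364 and -0.624 in the EVs libraries of mice 1 to 4, and of -0.03, 0.11, -0.16 and -0.09 in the OGN libraries. The trend was thus stronger in the EVs libraries than in the OGN libraries, and strongest in the EVs libraries of mice 2 and 4. When the genes were ordered by length and cut into 10 bins of equal size, the median log2 difference in the bin with the shortest transcripts (67 to 1326 nt) was -0.18, -0.95, -0.24 and -1.08 in mice 1 to 4. In the bin with the longest transcripts (7170 to 123193 nt), it was 0.17, 0.81, 0.13 and 0.97.

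**Figure D1:**
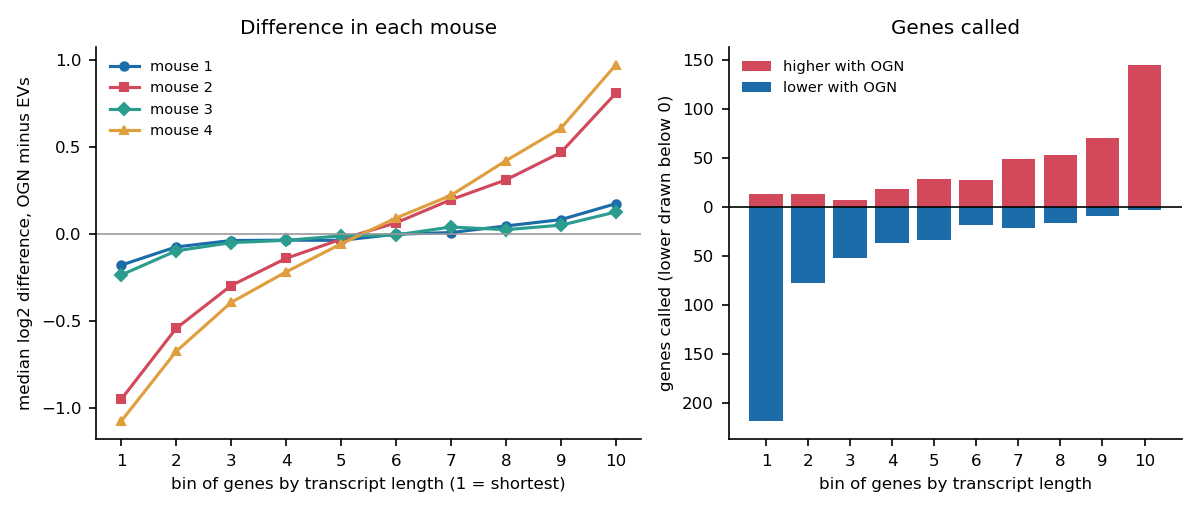
Left, the median log2 difference (OGN minus EVs) of the genes in each of 10 bins of transcript length, 1 line per mouse; right, the number of genes called higher (above 0) or lower (drawn below 0) in each bin. All 4 lines climb from negative values for short transcripts to positive values for long ones, from -0.95 to 0.81 in mouse 2 and from -0.18 to 0.17 in mouse 1, and the bin of shortest transcripts holds 219 genes called lower against 13 called higher.

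In the paired comparison, 923 of the 11681 genes tested differed between OGN and EVs (edgeR's quasi-likelihood test with mouse as a block, Benjamini-Hochberg adjusted p under 0.05). That is 7.9% of the genes tested. With OGN, 424 genes (3.63%) were higher and 499 (4.27%) were lower, and 478 of them differed by more than 2-fold, 203 higher and 275 lower. The difference had the same sign in all 4 mice for 919 of the 923 genes, a pattern that 42.4% of all genes tested showed. The 4 exceptions were mt-Nd4 and mt-Nd2, 2 subunits of complex I encoded in the mitochondrial genome, with Prr7 and Tma7-ps, and in each of them mouse 1 alone went the other way. Prr7, Tma7-ps, Muc4, Ceacam1 and Slc7a2 were chosen for naming after their values had been seen. The OGN and EVs libraries did not overlap for 798 called genes, against 22.7% of all genes tested.

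The length trend moved with these calls, so the paired fit was also made with the trend of every library taken out. Levels in CPM, comparisons with the Epcam+ fraction and those with vehicle are given below without this correction. Of the 923 genes, 713 (334 higher, 379 lower) were called in the same direction by that fit, none changed sign and 10 had no length. That fit called 13.2% of the genes it tested, 5.58% higher and 7.64% lower. Across the 11681 genes, the differences of any 2 mice correlated with Pearson's r of 0.304 to 0.489, except for mice 2 and 4, whose EVs libraries shared the strong length trend and whose differences correlated with r = 0.773 (0.665 with the trend taken out). In mice 1 and 3 alone, where the trend was smaller, 603 of the 923 genes were also called, and 7.71% of the genes tested in those mice passed. Those mice are also part of the main fit. A fit of 2 mice has too few libraries to measure the spread between cultures well, so its counts, here and below, are descriptions only. The count of calls varied with the mice in the fit, with 20 genes called without mouse 2, 188 without mouse 4, 731 without mouse 3 and 1825 without mouse 1, and 891 in mice 1 and 3 alone. The 20 genes that were called whichever mouse was left out included Saa3, Lcn2, Muc4, Slc7a2, Slc7a11, Adamts7, Cxcl5, Ceacam1, Calcrl, Syt7, Cxcl3, Npr3, Chil1 and Il33, which were higher with OGN, and Cebpb, Scara5, Ankrd1, Ier2 and Plau, which were lower. Each other called gene named below lost its call in at least 1 of the 4 fits that left out a mouse.

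**Figure D2:**
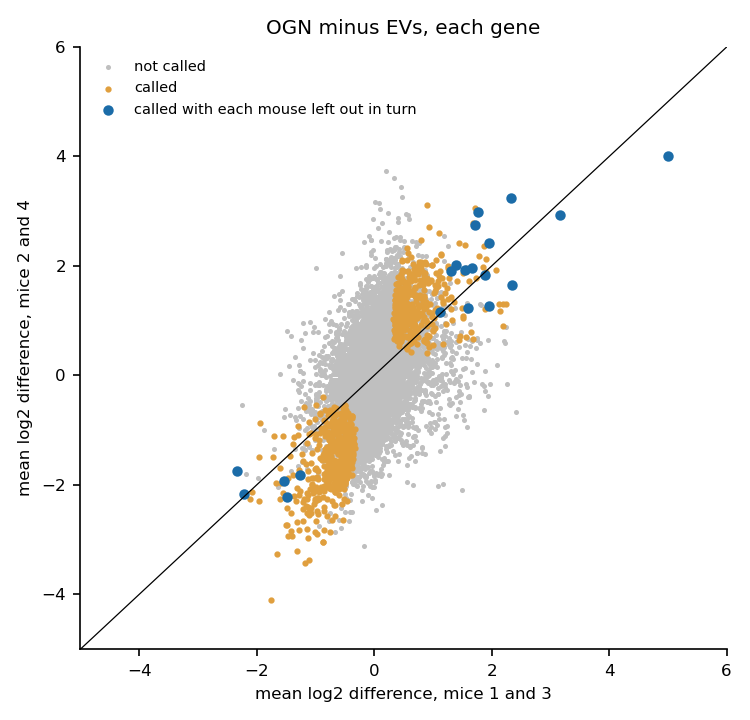
Each point is a gene, with its mean log2 difference (OGN minus EVs) in mice 1 and 3 on the x axis and in mice 2 and 4 on the y axis; called genes are orange, the 20 genes called with each mouse left out in turn are blue, and the line marks equal values. The blue points lie on both sides of the line and away from 0 on both axes, whereas many other genes spread along the y axis with small values on the x axis.

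**Figure D3:**
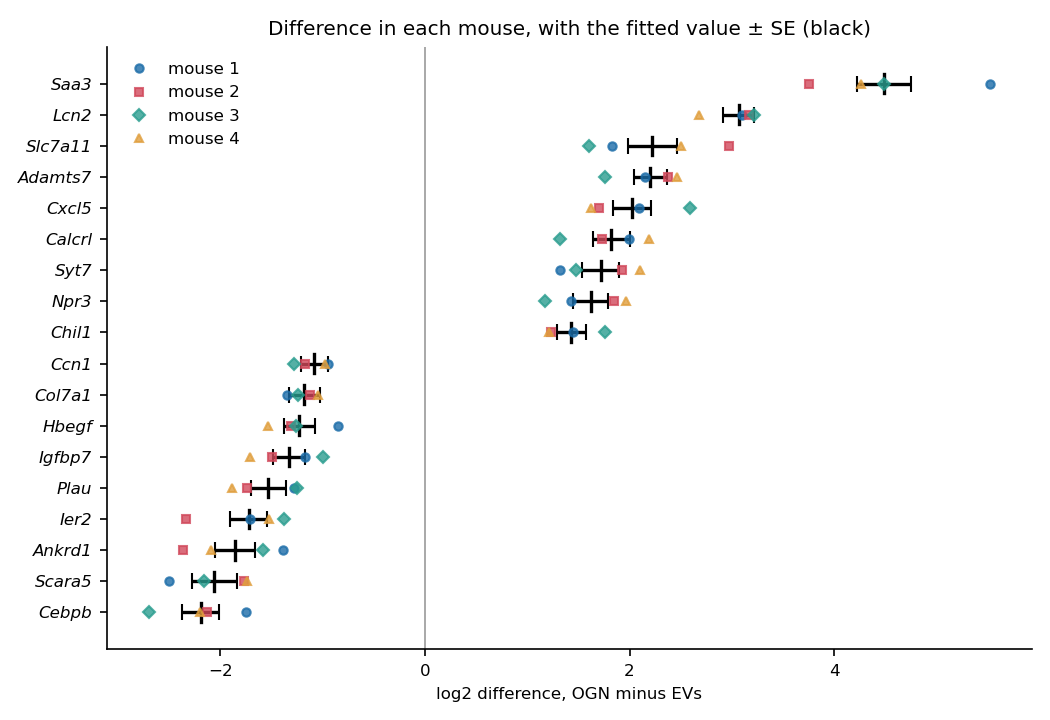
For 18 genes, 9 in each direction, among those of smallest p that also held with the length trend taken out, the log2 difference (OGN minus EVs) in each mouse (coloured symbols) and the fitted log2 fold change ± SE (black). Saa3 and Lcn2 lie farthest to the right (fitted 4.49 and 3.07), Cebpb farthest to the left (-2.19), and in every gene shown all 4 mice lie on the same side of 0.

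Acute-phase and antimicrobial genes rose with OGN and had the highest median of the lists described here. Of the 10 tested genes of this list, 9 were higher with OGN and none was lower, with a median log2 fold change of 1.17 against 0.01 over all genes tested. With the length trend taken out the count was the same and the median was 1.44, and in mice 1 and 3 alone all 10 members were called higher. Lcn2 encodes lipocalin 2, which binds bacterial siderophores. It stood at 48.7, 41.8, 41.2 and 51.3 CPM with EVs and at 419.8, 378, 385 and 330.0 CPM with OGN in mice 1 to 4. Every OGN library was far above every EVs library, and the fitted difference was 8.38-fold (log2 3.07 ± 0.15 SE, adjusted p = 0.000101). Saa3, the serum amyloid A form made outside the liver, stood at 6.72, 18.4, 10.5 and 13.7 CPM with EVs and at 321, 252, 240.3 and 267 CPM with OGN. This was the largest fold change among the named genes, 22.5-fold (log2 4.49 ± 0.26, adjusted p = 0.00022), and it rested on 21 to 81 counts per EVs library. Vehicle libraries held both genes at lower levels than EVs libraries did, with means of 10.6 CPM for Lcn2 and 0.425 CPM for Saa3.

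**Figure D4:**
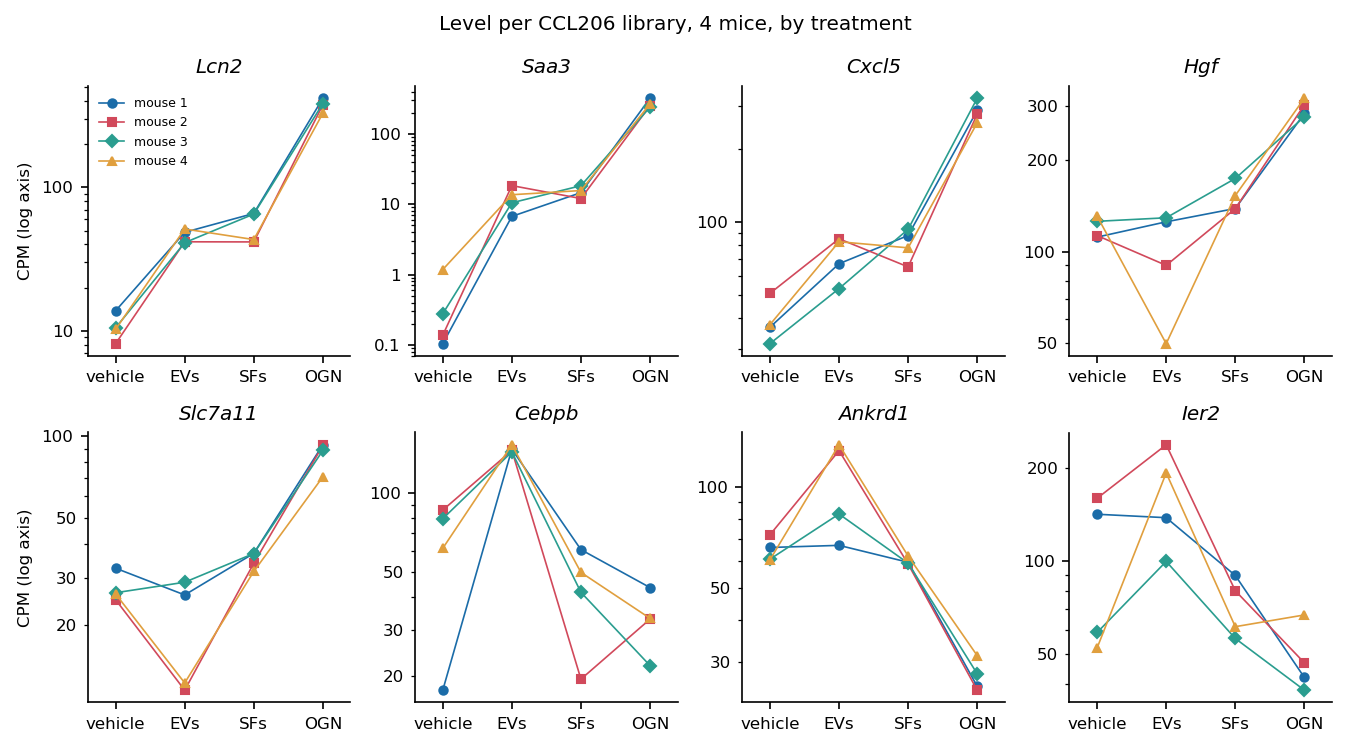
Level (CPM, log axis) of 8 genes in each CCL206 library by treatment, with 1 line per mouse. Lcn2, Saa3, Cxcl5, Hgf and Slc7a11 are higher with OGN than with EVs in every mouse, whereas Cebpb, Ankrd1 and Ier2 are lower.

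Other secreted members of the list rose by smaller amounts. Chil1, a chitinase-like glycoprotein, stood at 142, 120.0, 126 and 109 CPM with EVs and at 389, 283, 425 and 252 CPM with OGN (2.70-fold, log2 1.43 ± 0.14, adjusted p = 0.00538). Il33, an alarmin cytokine held in the nucleus, stood at 114, 114, 83.0 and 81.7 CPM with EVs and at 238, 211, 187 and 221 CPM with OGN (2.23-fold, log2 1.16 ± 0.14, adjusted p = 0.00962). Neither gene overlapped between the groups. Cp, which encodes the copper-carrying ferroxidase ceruloplasmin, had means of 1769 ± 282 CPM with EVs and 3126 ± 135 CPM with OGN (SD, n = 4; log2 0.85 ± 0.16, adjusted p = 0.0287). C3, the central component of complement, had means of 2817 ± 917 and 5356 ± 308 CPM (log2 1.01 ± 0.22, adjusted p = 0.0368). With the trend on coding length taken out in place of that on transcript length, both values were 0.52. Complement as a list moved less. Of its 10 tested genes 2 were higher, C3 and the C1 inhibitor gene Serping1 (38.8 ± 6.55 against 68.4 ± 3.69 CPM, log2 0.84 ± 0.15, adjusted p = 0.0259), none was lower, and the list's median was 0.32.

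The promoters of inducible members are shown because several of these genes moved together and carried short matches to inflammatory factor motifs. The sequences are the 250 bases before the annotated start in RefSeq (GRCm38.p6), written 5′ to 3′ on the strand of the gene. Capitals mark the motif match, which is the NF-kB consensus in Cxcl1 (chr5:90890995-90891244, plus strand) and Cxcl3 (chr5:90785851-90786100, plus strand), and the C/EBP motif TTGCNNAA, read on the other strand, in Saa3 (chr7:46715677-46715926, minus strand).
Cxcl1: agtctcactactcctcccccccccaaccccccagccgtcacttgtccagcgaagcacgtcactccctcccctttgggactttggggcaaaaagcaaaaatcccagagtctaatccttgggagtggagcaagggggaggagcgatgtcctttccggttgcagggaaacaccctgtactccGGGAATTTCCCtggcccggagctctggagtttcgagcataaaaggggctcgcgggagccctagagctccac
Cxcl3: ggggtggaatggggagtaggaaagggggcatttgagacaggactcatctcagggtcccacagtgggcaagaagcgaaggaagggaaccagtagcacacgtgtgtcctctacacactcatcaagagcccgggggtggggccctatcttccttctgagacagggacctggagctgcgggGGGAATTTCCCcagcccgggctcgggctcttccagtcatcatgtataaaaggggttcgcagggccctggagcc
Saa3: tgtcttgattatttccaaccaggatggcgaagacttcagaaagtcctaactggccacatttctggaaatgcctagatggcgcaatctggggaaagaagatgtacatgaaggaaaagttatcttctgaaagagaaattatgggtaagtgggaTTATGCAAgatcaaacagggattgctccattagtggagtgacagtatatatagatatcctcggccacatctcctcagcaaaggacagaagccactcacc

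In Cxcl1 and Cxcl3 the capitals cover 2 overlapping matches, whose first bases lie 71 and 70 bases before the start in Cxcl1 and 73 and 72 bases before it in Cxcl3. The Saa3 match begins 99 bases before the start. Both strands were searched. The C/EBP motif was found in 8 of 11 promoter windows (72.7%) of the acute-phase genes, of which 9 of 10 were matched, in 0 of 8 windows of the chemokine genes, of which 8 of 12 were matched, and in 9.56% of all 32851 windows in the RefSeq table. The NF-kB consensus was found in 4 windows of the chemokine genes (50%), in 2 of the acute-phase genes (18.2%), in 4 of 17 windows (23.5%) of the contractile and YAP target genes described below, and in 7.25% of all windows. A match describes these letters only and does not show that a factor was bound.

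Chemokine ligands moved in both directions. Of 12 tested, 4 were higher and 2 were lower, with a median log2 fold change of 0.19 (0.57 with the length trend taken out, with 6 higher and 3 lower). The members that rose included 3 ligands of the neutrophil receptor Cxcr2. Cxcl5 stood at 67.2, 85.1, 53.1 and 82.8 CPM with EVs and at 287, 277, 322 and 255 CPM with OGN, without overlap (4.06-fold, log2 2.02 ± 0.19, adjusted p = 0.00402). Cxcl3 stood at 7.68, 9.06, 8.29 and 7.25 CPM with EVs and at 31.8, 20.4, 31.9 and 19.6 CPM with OGN (3.18-fold, log2 1.67 ± 0.23, adjusted p = 0.0138). Cxcl1 stood at 126, 73.3, 37.2 and 41.3 CPM with EVs and at 268, 269, 73.4 and 113 CPM with OGN. For Cxcl1 the groups overlapped, because mice 1 and 2 were above mice 3 and 4 in either treatment, but OGN was the higher library in each mouse (2.57-fold, log2 1.36 ± 0.17, adjusted p = 0.0105). Without the mouse block Cxcl1 was not called. The fold changes of all 3 genes stood above their main value with the length trend taken out (2.35, 2.15 and 1.87 on the log2 scale).

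The 2 chemokines that fell bind other receptors. Ccl9, a ligand of Ccr1, stood at 17.0, 28.6, 16.1 and 20.6 CPM with EVs and at 8.07, 6.63, 5.42 and 7.60 CPM with OGN (2.93-fold lower, log2 -1.55 ± 0.24, adjusted p = 0.0203). Cx3cl1, the membrane-bound ligand of Cx3cr1, stood at 356, 311, 244 and 235 CPM with EVs and at 211, 189, 116 and 150.3 CPM with OGN (log2 -0.79 ± 0.13, adjusted p = 0.0233). The homeostatic chemokine Cxcl12 had means of 454 ± 63.6 CPM with EVs and 347 ± 44.7 CPM with OGN and did not pass the test (log2 -0.37 ± 0.13, adjusted p = 0.0923).

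General targets of NF-kB did not move as a group. Of 19 tested, 3 were higher and 2 were lower, and the median was -0.0035. Ptgs2, which encodes the inducible cyclooxygenase, stood at 216, 222, 92.4 and 107 CPM with EVs and at 489.9, 557, 135 and 246 CPM with OGN. Mice 1 and 2 again had the higher levels in either treatment, and OGN was higher in each of the 4 mice (2.11-fold, log2 1.08 ± 0.16, adjusted p = 0.017; not called without the mouse block). Ikbke, a kinase of innate immune signalling, had means of 74.0 ± 8.12 CPM with EVs and 143 ± 6.90 CPM with OGN (log2 0.97 ± 0.14, adjusted p = 0.0166). Genes of the interferon response and MHC class I presentation had a median of -0.45, with 1 of 19 called, the immunoproteasome subunit Psmb9, which had means of 18.8 ± 7.43 CPM with EVs and 6.10 ± 1.70 CPM with OGN (log2 -1.59 ± 0.29, adjusted p = 0.0268; not called in mice 1 and 3 alone).

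Growth factors that fibroblasts give to lung epithelium were higher with OGN in 3 cases and lower in 1, of 13 tested, with a list median of 0.28. Hgf, the ligand of Met, stood at 125, 90.1, 129 and 49.9 CPM with EVs and at 283, 303, 276 and 318 CPM with OGN (3.19-fold, log2 1.67 ± 0.25, adjusted p = 0.0178). Fgf10, a ligand of Fgfr2 needed for lung branching, stood at 64.3, 42.6, 56.3 and 37.1 CPM with EVs and at 97.5, 113, 93.7 and 121 CPM with OGN (2.17-fold, log2 1.12 ± 0.21, adjusted p = 0.0268). Fgf7, the keratinocyte growth factor, stood at 98.6, 103, 117 and 111 CPM with EVs and at 178, 164, 179 and 215 CPM with OGN (1.73-fold, log2 0.79 ± 0.13, adjusted p = 0.0232). None of the 3 overlapped between the groups, and with the length trend taken out their log2 fold changes were 1.34, 0.96 and 0.82. For Hgf and Fgf10, the lowest EVs levels were those of mice 2 and 4, the libraries with the strongest length trend.

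Hbegf, a membrane-bound ligand of the EGF receptor, went the other way. It stood at 125, 180.5, 72.8 and 119.9 CPM with EVs and at 69.0, 72.9, 30.2 and 41.3 CPM with OGN (2.34-fold lower, log2 -1.23 ± 0.15, adjusted p = 0.0103). The groups touched, since 1 EVs library (mouse 3, 72.8 CPM) lay just under 1 OGN library (mouse 2, 72.9 CPM), but OGN was lower in each mouse. Fgf2 did not pass the test, with means of 38.1 ± 9.66 CPM with EVs and 52.5 ± 4.37 CPM with OGN (log2 0.50 ± 0.20, adjusted p = 0.111).

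Among Wnt ligands and regulators, 2 of 15 were higher and 1 was lower, with a median of 0.30. Wnt7b, a canonical ligand, stood at 0.640, 0.824, 1.68 and 1.95 CPM with EVs and at 3.81, 4.21, 7.92 and 2.99 CPM with OGN (log2 1.90 ± 0.45, adjusted p = 0.0429), on 2 to 13 counts per EVs library. Its level in the CCL206 fraction was 0.792 to 1.86% of that in the Epcam+ fraction of the same culture with EVs and 2.49 to 7.21% with OGN, and the part of epithelial RNA in this difference was not tested. Rspo3, an R-spondin that amplifies Wnt signals, had means of 7.54 ± 4.38 CPM with EVs and 15.7 ± 2.62 CPM with OGN, with overlap (log2 1.19 ± 0.28, adjusted p = 0.0419; not called without the mouse block). Dkk3, a secreted protein of the Dickkopf family, was lower at 65.2 ± 3.74 CPM with OGN against 107 ± 8.44 CPM with EVs (log2 -0.70 ± 0.14, adjusted p = 0.03). Wnt5a, a non-canonical ligand, did not pass the test (log2 0.26 ± 0.17, adjusted p = 0.307), and its sign changed with the length trend taken out (-0.11).

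The TGF-beta and BMP pathway was mixed, with 2 of 24 members higher and 3 lower and a median of 0.07. Inhba, the activin A subunit, stood at 148, 159, 106 and 145 CPM with EVs and at 78.7, 89.1, 44.4 and 59.2 CPM with OGN (2.08-fold lower, log2 -1.06 ± 0.14, adjusted p = 0.0138). Id1, a transcriptional target of BMP signalling, had means of 253 ± 91.4 and 111 ± 13.3 CPM (log2 -1.12 ± 0.18, adjusted p = 0.0228). Of the receptors in the list, Bmpr2 and Tgfbr1 were called, both higher. Bmpr2 had means of 107 ± 37.7 CPM with EVs and 232 ± 32.0 CPM with OGN (log2 1.19 ± 0.23, adjusted p = 0.0299), and Tgfbr1 of 31.5 ± 12.0 and 63.8 ± 4.11 CPM (log2 1.09 ± 0.24, adjusted p = 0.037). With the length trend taken out, the log2 fold change was 0.53 for Bmpr2 and -0.67 for Id1.

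Among the genes lower with OGN, the smallest p was that of Cebpb, a bZIP transcription factor of the C/EBP family. It stood at 147, 145, 144 and 153 CPM with EVs and at 43.5, 32.9, 21.9 and 33.2 CPM with OGN (4.57-fold lower, log2 -2.19 ± 0.18, adjusted p = 0.00175). Vehicle libraries of mice 1 to 4 held 17.6, 86.0, 79.7 and 61.4 CPM, which is above the OGN level in 3 of the 4 mice. Ier2, an immediate early gene, stood at 138, 238, 99.9 and 193 CPM with EVs and at 42.1, 47.0, 38.3 and 67.1 CPM with OGN (3.30-fold lower, log2 -1.72 ± 0.18, adjusted p = 0.00538). Scara5, a receptor for ferritin, stood at 35.5, 28.6, 32.8 and 19.0 CPM with EVs and at 6.05, 8.19, 7.13 and 5.49 CPM with OGN (4.16-fold lower, log2 -2.06 ± 0.22, adjusted p = 0.00555). Neither gene overlapped between the groups. Plau, the urokinase plasminogen activator, had means of 96.1 ± 13.9 CPM with EVs and 32.9 ± 4.59 CPM with OGN (log2 -1.53 ± 0.17, adjusted p = 0.00619).

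Genes of the contractile apparatus and targets of YAP were lower more often than higher. Of 19 tested, 6 were lower and 1 was higher, with a median of -0.46 (-0.49 with the length trend taken out, with 9 lower and 1 higher). Ankrd1, a cardiac ankyrin repeat gene much used as a YAP readout, stood at 66.9, 129, 83.0 and 134 CPM with EVs and at 25.3, 24.7, 27.6 and 31.3 CPM with OGN (3.63-fold lower, log2 -1.86 ± 0.19, adjusted p = 0.00538). Ccn1, a matricellular YAP target, stood at 163, 187, 119 and 130.5 CPM with EVs and at 84.3, 82.9, 49.1 and 66.3 CPM with OGN (2.11-fold lower, log2 -1.08 ± 0.13, adjusted p = 0.0102). Tpm1, which encodes an actin-binding tropomyosin, had means of 943 ± 176 CPM with EVs and 451 ± 29.0 CPM with OGN (log2 -1.03 ± 0.16, adjusted p = 0.0213). The 1 member that rose was Clic5, a chloride channel protein that also marks alveolar type 1 (AT1) cells.

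The Ankrd1 promoter is shown because the gene led this list and its window held 2 matches to the TEAD motif GGAATG, written in capitals, whose first bases lie 210 and 123 bases before the start (RefSeq, GRCm38.p6, chr19:36119845-36120094, minus strand, written 5′ to 3′ on the strand of the gene).
Ankrd1: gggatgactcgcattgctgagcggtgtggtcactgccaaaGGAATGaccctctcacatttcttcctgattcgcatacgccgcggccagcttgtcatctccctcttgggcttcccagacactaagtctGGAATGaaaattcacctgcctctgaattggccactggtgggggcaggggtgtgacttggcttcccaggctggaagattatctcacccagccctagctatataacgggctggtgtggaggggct

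The motif was present on either strand in 10 of the 17 genes of the list with a promoter in the table (58.8% of windows) and in 12.6% of all windows of this length. It was also found in 27.3% of the windows of the acute-phase genes and in 25.0% of those of the chemokine genes.

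In the extracellular matrix, a protease, a cross-linking enzyme and several glycoproteins were higher with OGN, while no gene of the collagen list was called. Adamts7, a metalloproteinase that cleaves matrix proteins, stood at 41.9, 40.4, 64.6 and 39.6 CPM with EVs and at 187, 210.3, 220.0 and 219.8 CPM with OGN (4.60-fold, log2 2.20 ± 0.16, adjusted p = 0.00098). Lox, the lysyl oxidase that cross-links collagen and elastin, stood at 101, 65.9, 119 and 71.9 CPM with EVs and at 195, 220.4, 234 and 234 CPM with OGN (2.56-fold, log2 1.36 ± 0.18, adjusted p = 0.012). Both genes had no overlap between groups and stayed near these values with the length trend taken out (1.95 and 1.17). Of 19 matrix glycoproteins, 6 were higher and none was lower, with a median of 0.66 that dropped to 0.08 with the length trend taken out, where 6 were higher and 2 lower. Tnc, the large glycoprotein tenascin C, had means of 41.2 ± 12.5 CPM with EVs and 95.0 ± 12.2 CPM with OGN (log2 1.25 ± 0.20, adjusted p = 0.0223). Lama4, a laminin chain of basement membranes, had means of 48.1 ± 16.4 and 97.8 ± 4.81 CPM (log2 1.09 ± 0.20, adjusted p = 0.027). With the trend on coding length taken out these 2 values were 0.70 and 0.58.

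Of 17 fibrillar and basement membrane collagens none was called, with a median of -0.17. With the length trend taken out, none was higher and 11 were lower, with a median of -0.52, so the reading for collagens depended on this choice. Col1a1, a chain of type I collagen, stood at 1828, 2028, 2791 and 2049.6 CPM with EVs and at 1456, 1515, 1725 and 1676 CPM with OGN. The groups did not overlap, but the gene did not pass the test (log2 -0.42 ± 0.15, adjusted p = 0.0864). It passed with the length trend taken out (-0.71, adjusted p = 0.00592). Col7a1, the anchoring fibril collagen, which is outside that list, was lower at 26.8 ± 1.49 CPM with OGN against 61.9 ± 7.77 CPM with EVs (log2 -1.18 ± 0.15, adjusted p = 0.0104).

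Small leucine-rich proteoglycans are the family of osteoglycin itself, and 1 of 5 tested was called. Dcn, the collagen-binding decorin, stood at 769, 1011, 718 and 824 CPM with EVs and at 1393, 1519, 1366 and 1511 CPM with OGN (1.77-fold, log2 0.83 ± 0.14, adjusted p = 0.0232; log2 0.53 with the length trend taken out). The endogenous mouse Ogn gene stood at 32.0, 38.5, 31.6 and 22.9 CPM with EVs and at 19.5, 15.0, 17.4 and 22.7 CPM with OGN. The OGN libraries lay below the EVs libraries by a small gap, and the gene did not pass the test (log2 -0.73 ± 0.23, adjusted p = 0.0707). In vehicle it averaged 46.6 CPM. Of 18 metalloproteinases and inhibitors 2 were higher, Adamts7 and the collagenase Mmp13 (17.8 ± 3.88 against 31.3 ± 7.32 CPM, log2 0.82 ± 0.17, adjusted p = 0.0339), and 1 was lower, the inhibitor Timp1 (170.2 ± 68.7 against 98.4 ± 12.2 CPM, log2 -0.70 ± 0.18, adjusted p = 0.0472). Timp1 was not called with the length trend taken out (-0.17, adjusted p = 0.274), without the mouse block or in mice 1 and 3 alone.

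Single genes of amino acid transport, superoxide removal and iron handling were called, most of them higher. Slc7a11, the cystine/glutamate antiporter, stood at 25.9, 11.5, 28.9 and 12.3 CPM with EVs and at 93.0, 92.5, 88.6 and 70.8 CPM with OGN (4.66-fold, log2 2.22 ± 0.24, adjusted p = 0.00569). It reached 9.01 to 19.1% of the level in the Epcam+ fraction of the same culture with EVs and 32.2 to 40.1% with OGN. The part of epithelial RNA in the Slc7a11 difference was not tested. Its heavy chain partner Slc3a2 did not pass the test (log2 -0.27 ± 0.16, adjusted p = 0.259). Slc7a2, a carrier of cationic amino acids such as arginine, stood at 21.8, 9.06, 17.7 and 9.20 CPM with EVs and at 66.3, 81.2, 69.2 and 67.3 CPM with OGN (5.17-fold, log2 2.37 ± 0.27, adjusted p = 0.00674). For both carriers the EVs libraries of mice 2 and 4 were the lowest, and the log2 fold changes were 1.74 and 1.96 with the length trend taken out. Sod2, the mitochondrial manganese superoxide dismutase, stood at 106, 112, 105 and 136 CPM with EVs and at 223, 218, 199.5 and 222 CPM with OGN (1.90-fold, log2 0.93 ± 0.13, adjusted p = 0.0138). Sod1, its cytosolic counterpart, went down from 145 ± 65.2 to 67.2 ± 5.09 CPM (log2 -0.99 ± 0.23, adjusted p = 0.0414). For Sod1 the EVs libraries of mice 2 and 4 were the highest. Its log2 fold change was -1.24 with the trend on transcript length taken out and -0.60 with that on coding length. In mice 1 and 3 alone it was -0.49.

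Over the 26 tested genes of glutathione metabolism and NRF2 targets, 3 were higher and 1 was lower, with a median of 0.0014. The third member that rose was Gclc, the catalytic subunit of glutathione synthesis, which stood at 253 ± 84.4 CPM with EVs and 422 ± 84.3 CPM with OGN, with overlap (log2 0.79 ± 0.17, adjusted p = 0.0338; not called without the mouse block). In the Epcam+ fraction Gclc averaged 1146 CPM with EVs and 1349 CPM with OGN. The part of epithelial RNA in the Gclc difference was not tested. Of 14 iron handling genes, 5 were higher and none was lower, with a median of 0.52 (0.31 with the length trend taken out). Steap4, a metalloreductase induced by inflammatory cytokines, stood at 18.9, 8.51, 14.4 and 8.64 CPM with EVs and at 31.1, 29.3, 29.4 and 35.5 CPM with OGN (2.60-fold, log2 1.38 ± 0.25, adjusted p = 0.0268). Slc11a2, the divalent metal transporter, had means of 97.8 ± 16.1 and 159.7 ± 6.24 CPM (log2 0.74 ± 0.15, adjusted p = 0.0324).

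Genes driven by ATF4 and genes of amino acid synthesis were lower more often than higher. Of 19 tested, 7 were lower and 1 was higher, with a median of -0.36 (-0.22 with the length trend taken out, with 6 lower and none higher), and Cebpb was among the 7. Chac1, which degrades glutathione, stood at 28.5, 18.1, 14.0 and 19.5 CPM with EVs and at 8.52, 8.43, 6.70 and 8.48 CPM with OGN (2.37-fold lower, log2 -1.25 ± 0.22, adjusted p = 0.0265). Psph, the last enzyme of serine synthesis, stood at 39.0, 49.4, 43.7 and 63.3 CPM with EVs and at 29.4, 27.2, 22.0 and 26.1 CPM with OGN (log2 -0.88 ± 0.18, adjusted p = 0.0321). Phgdh, the first enzyme of that route, had means of 222 ± 77.8 and 108 ± 23.9 CPM, with overlap (log2 -0.98 ± 0.18, adjusted p = 0.0272). Slc7a11, a known ATF4 target outside that list, moved opposite to these genes.

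Among genes of energy metabolism, the called glycolysis genes were higher, while most members of the list did not pass. Of 19 glycolysis genes, 5 were higher and none was lower, with a median of 0.22, and with the length trend taken out 10 were higher and 1 was lower (median 0.41). Slc2a1, the glucose transporter GLUT1, stood at 219, 243, 219 and 273 CPM with EVs and at 429.8, 451, 453 and 452 CPM with OGN (1.90-fold, log2 0.93 ± 0.13, adjusted p = 0.0138). Pgam1, a phosphoglycerate mutase, had means of 248 ± 24.3 and 354 ± 30.8 CPM (log2 0.53 ± 0.13, adjusted p = 0.0429; 0.80 with the length trend taken out). Of 16 genes of the hypoxia response 2 were higher, both of them oxygen-sensitive transcription factor subunits. Hif1a had means of 264 ± 50.0 CPM with EVs and 437 ± 42.0 CPM with OGN (log2 0.76 ± 0.16, adjusted p = 0.0339; 0.40 with the length trend taken out), and Epas1 of 18.3 ± 9.19 and 41.9 ± 9.10 CPM (log2 1.30 ± 0.20, adjusted p = 0.0191). In the Epcam+ fraction Epas1 averaged 238 CPM with EVs and 235 CPM with OGN. The part of epithelial RNA in the Epas1 difference was not tested.

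Of 33 nuclear genes for respiratory chain subunits, 13 were lower and none was higher, with a median of -0.83, and of 31 cytosolic ribosomal protein genes 14 were lower and none was higher, with a median of -0.86. Both lists consist largely of short transcripts, and with the length trend taken out their medians were -0.33 and -0.42, with 12 and 15 members lower. Cox6a1, a subunit of cytochrome c oxidase, stood at 91.9, 218, 123 and 260.1 CPM with EVs and at 54.0, 60.2, 68.6 and 64.2 CPM with OGN (log2 -1.36 ± 0.23, adjusted p = 0.0235; -0.68 with the length trend taken out). Rps21, a protein of the small ribosomal subunit, stood at 194, 405, 145 and 478 CPM with EVs and at 111, 78.9, 56.2 and 84.0 CPM with OGN (log2 -1.75 ± 0.27, adjusted p = 0.0203; -1.01 with the length trend taken out). In either gene the EVs libraries of mice 2 and 4 were the highest. Both families have many processed pseudogenes, and the counting could split reads between copies, so these levels are uncertain.

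Mitochondrially encoded genes did not follow the nuclear ones, with 3 of 13 higher and none lower and a median of -0.08 (0.55 with the length trend taken out, with 6 higher). mt-Nd5, a complex I subunit, stood at 4373, 1110.2, 860.0 and 556 CPM with EVs and at 4620.1, 3313, 2728 and 3287 CPM with OGN (log2 1.50 ± 0.35, adjusted p = 0.0412). In mouse 1 both libraries had similar levels, and OGN was higher in the other three mice. The 3 called genes, mt-Nd5, mt-Nd4 and mt-Nd2, were not called without the mouse block. Nuclear copies of mitochondrial genes can take up some of these reads.

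Cell cycle genes, in a line whose division had been blocked, had a median of -0.45, and 2 of 23 were called, both lower (8 with the length trend taken out). Aurka, a mitotic kinase, had means of 32.2 ± 7.19 CPM with EVs and 15.2 ± 1.36 CPM with OGN (log2 -1.05 ± 0.21, adjusted p = 0.03), and Cdk1, which drives entry into mitosis, of 81.5 ± 22.3 and 44.8 ± 3.54 CPM (log2 -0.81 ± 0.20, adjusted p = 0.0472). In the Epcam+ fraction Aurka averaged 73.6 CPM with EVs and 80.6 CPM with OGN, and Cdk1 130 and 138 CPM. The part of epithelial RNA in the levels of cell cycle genes was not tested. Targets of p53 were lower in 5 of 18 cases and higher in none, with a median of -0.16, and 1 was lower with the trend on coding length taken out. Cdkn1a, the cell cycle inhibitor p21, stood at 581, 873, 619 and 979.9 CPM with EVs and at 418, 405, 459 and 514 CPM with OGN (1.65-fold lower, log2 -0.72 ± 0.16, adjusted p = 0.0381), and it was not called in that fit (-0.34). In the IGF axis 4 of 10 genes were lower, all of them secreted binding proteins or a protease that cleaves these. Igf1 and Igf2 were not analysed here. Igfbp7 stood at 172, 227, 163 and 249 CPM with EVs and at 76.4, 80.8, 81.6 and 75.8 CPM with OGN (2.51-fold lower, log2 -1.33 ± 0.16, adjusted p = 0.00828). Igfbp4 had means of 646 ± 219 and 284 ± 46.1 CPM (log2 -1.12 ± 0.16, adjusted p = 0.0145).

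**Figure D5:**
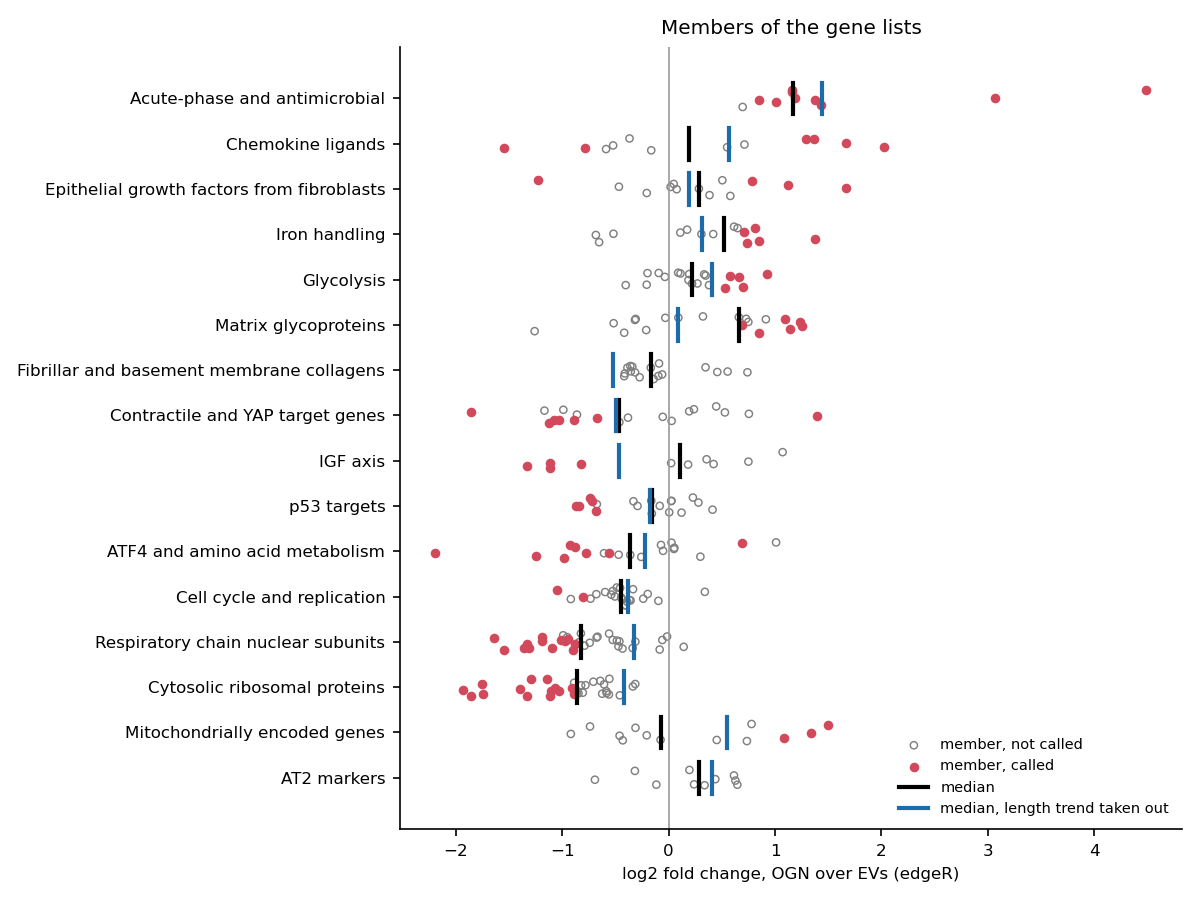
Log2 fold change (OGN over EVs) of each tested member of 16 gene lists, with called members in red, the list's median as a black bar and the median with the length trend taken out as a blue bar. The acute-phase list lies farthest to the right (median 1.17) and the ribosomal protein list farthest to the left (-0.86), and the blue bars of the respiratory and ribosomal lists are nearer to 0 than their black bars.

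Receptors for peptide hormones and a gene of vesicle release were also called whichever mouse was left out. Npr3, the clearance receptor for natriuretic peptides, stood at 81.6, 58.5, 94.4 and 64.4 CPM with EVs and at 220.1, 212, 214 and 252 CPM with OGN (3.07-fold, log2 1.62 ± 0.17, adjusted p = 0.00538). Calcrl, the receptor for adrenomedullin and CGRP, stood at 27.2, 29.1, 30.1 and 20.6 CPM with EVs and at 109, 97.3, 75.5 and 95.0 CPM with OGN (3.53-fold, log2 1.82 ± 0.18, adjusted p = 0.00538). Syt7, a calcium sensor of vesicle fusion, had means of 30.1 ± 9.53 and 95.6 ± 9.36 CPM (3.29-fold, log2 1.72 ± 0.18, adjusted p = 0.00538). All 3 were free of overlap between the groups.

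The CCL206 fraction held epithelial RNA in every library, and its amount was compared between the groups. The summed level of 10 AT2 markers was 3104, 3931, 2799 and 3757 CPM with EVs and 3482, 2507, 4228 and 2123 CPM with OGN. Without a correction for length it was higher with OGN in mice 1 and 3 and lower in mice 2 and 4. The mean log2 level of the markers differed by 0.18 (two-sided exact permutation test over the 8 libraries, p = 0.429, where 4 against 4 can reach 0.0286), and none of the 10 was called. With the length trend taken out, the difference was 0.35, with OGN higher in 4 of 4 mice (p = 0.2 by the same exact permutation test), and 4 of the 10 markers and 2 of the 18 markers of other epithelial cells were called higher. In mice 1 and 3 alone 6 of the 10 were called higher, as were 14 of 18 markers of other epithelial cells, against the 7.71% given above. Of the 10 acute-phase genes, 9 were higher with OGN in all 4 mice, against 21.1% of all genes, and the part of epithelial RNA in their difference was not tested. Of 10 AT1 markers 2 were called, both higher. Fibroblast signature genes summed to 7826 to 12904 CPM with EVs and 11936 to 12921 CPM with OGN. Macrophage markers summed to 183 to 235 and 220 to 394 CPM over the 4 of 13 markers in the table, of which Cd14, a co-receptor for lipopolysaccharide that fibroblasts also express, was called higher (55.0 ± 10.9 against 101 ± 16.3 CPM, log2 0.90 ± 0.19, adjusted p = 0.0338). In the Epcam+ fraction Cd14 averaged 289 CPM with EVs and 451 CPM with OGN. The part of epithelial RNA in the Cd14 difference was not tested.

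Levels in the CCL206 fraction were also set against the Epcam+ fraction of the same culture. AT2 markers in the CCL206 fraction reached 24.8 to 30.4% of their Epcam+ level with EVs and 14.2 to 36.0% with OGN. Lcn2 reached 34.5 to 42.1% with EVs and 79.5 to 94.1% with OGN. Saa3 reached 66.7, 415, 134 and 205% in mice 1 to 4 with EVs and 210 to 280% with OGN. Its level was thus higher in the fibroblast fraction than in the epithelial fraction in every OGN culture and in all EVs cultures but that of mouse 1. Il33 reached 43.5 to 69.1% with EVs and 79.0 to 106% with OGN. Other inflammatory genes had shares nearer to those of the AT2 markers. With EVs and with OGN, Cxcl3 reached 15.8 to 22.2% and 16.9 to 41.6%. Chil1 reached 23.4 to 33.9% and 30.6 to 53.3%, and Cxcl5 reached 25.3 to 41.2% and 39.7 to 59.7%. Some called genes were mostly epithelial. Muc4, a membrane mucin, stood at 7.68, 0.549, 3.63 and 2.51 CPM with EVs and at 28.7, 15.7, 26.5 and 12.5 CPM with OGN (log2 2.71 ± 0.37, adjusted p = 0.0138), on 2 to 28 counts per EVs library. It reached 0.228 to 1.87% of the Epcam+ level with EVs and 3.63 to 7.48% with OGN. Ceacam1, an adhesion molecule, had means of 12.5 ± 5.38 and 45.4 ± 17.0 CPM (log2 1.90 ± 0.22, adjusted p = 0.00806) and reached 3.79 to 8.50% with EVs and 10.1 to 20.4% with OGN. Clic5 stood at 19.5, 16.8, 15.8 and 5.02 CPM with EVs and at 39.0, 29.3, 45.0 and 27.7 CPM with OGN (log2 1.40 ± 0.26, adjusted p = 0.0277). It reached 2.95 to 11.8% with EVs and 18.5 to 34.7% with OGN. The part of epithelial RNA in the differences of the genes in this paragraph was not tested.

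The OGN minus EVs difference in CCL206 cells was then compared with that in the Epcam+ cells of the same cultures by an interaction term, which was past the threshold for 684 of 11805 genes (5.79%), more positive in CCL206 for 384 and more negative for 300. This count was 3 without mouse 2, 18 without mouse 4 and 1211 without mouse 1. Lcn2 rose in both populations, by log2 1.98 in Epcam+ cells, and more in CCL206 (interaction 1.11, adjusted p = 0.0331). Saa3 rose by log2 3.95 in Epcam+ cells, and the interaction did not pass the test (0.53, adjusted p = 0.269). Chil1 and Cxcl5 likewise rose in the Epcam+ cells (log2 1.17 and 1.56), without an interaction past the threshold (adjusted p = 0.231 and 0.127). Ccn1 went in opposite directions, up by log2 0.75 in Epcam+ cells and down in CCL206 (interaction -1.80, adjusted p = 0.000475). Cebpb was lower in CCL206 and was not called in Epcam+ cells (log2 0.50, adjusted p = 0.574), with an interaction of -2.73 (adjusted p = 0.0331).

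The vehicle libraries placed the comparison. All counts in this paragraph are without a correction for length. Against vehicle, the length trend was stronger in the EVs libraries than in the OGN libraries, and its part in these counts was not tested. For 686 of the 923 called genes the mean log2 level in vehicle was nearer to OGN, and for 237 it was nearer to EVs. Among the 499 genes lower with OGN, vehicle was nearer to OGN for 426. For 18 of the 20 genes called whichever mouse was left out, vehicle was nearer to EVs. These 20 are the same genes as those called without mouse 2, and the part of this selection in their placement was not tested. Hgf, which is not one of these 20, also had vehicle nearer to EVs. It averaged 120.1 CPM in vehicle, 98.5 ± 36.8 CPM with EVs and 295 ± 18.8 CPM with OGN. Igfbp7 averaged 81.3 CPM in vehicle, 203 ± 41.9 CPM with EVs and 78.6 ± 2.96 CPM with OGN, and is an example of a gene for which OGN and vehicle lay close together.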

How the data were processed

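RNA of the re-sorted fractions was extracted with NucleoSpin RNA kits and sequenced on a NovaSeq instrument. The authors deposited raw counts per gene for all 32 libraries. The submitters' processing notes name Trimmomatic 0.30, DESeq2 1.34.0 and the build GRCm39, whereas the study's methods name GRCm38. The aligner, the counter and the annotation release are not given in the sources used here. No gene of the table has a count of 0 in any library (the lowest count is 1 for 660 genes), so genes silent in any library are missing.

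Groups and mouse numbers were taken from the labels. The 8 libraries were fitted with edgeR 4.0.16 in R 4.3.3 (TMM scaling, quasi-likelihood test, treatment plus mouse), after filtering on low counts, and p-values were adjusted over all genes tested by the method of Benjamini and Hochberg. A gene was called at an adjusted p under 0.05. Its SE is the absolute log2 fold change over the square root of F. The numbers mark the same animal, as the labels give it. The deviations of same-numbered libraries from their group means correlated with r = 0.13, -0.10, 0.07 and 0.15 in mice 1 to 4. Those of differently numbered libraries correlated with r of -0.25 to 0.21, so the pairing rests on the labels. None of 12 replicate pairs was identical, and the lowest chi-square per degree of freedom was 4.96.

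Transcript length was matched for 11686 genes (98.9%, 69 by an older symbol) to the Ensembl canonical transcript of GENCODE, and the trend was taken out with a spline of 4 degrees of freedom per library, fitted to the deviation from vehicle. Coding length was a second measure, added after the data had been seen because some short genes have long canonical transcripts. AT2 markers were compared with an exact permutation test over libraries. Alternatives were DESeq2 1.42.0, limma 3.58.1 (voom with library weights), RLE factors, other filters, no mouse term and leaving out each mouse. The programs were tested on simulated data. Promoters are RefSeq sequences (32851 windows of 27025 genes).

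Named genes were the first 10 by p, higher and lower, that held with the length trend taken out (a gene among those that were higher was left out of the text), up to 4 of smallest p per gene list, and genes the study or an earlier analysis follows. The genes and lists were chosen with earlier results of these data known.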

Additional observations from a re-analysis of the deposited data

Results flagged for a closer look

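Single libraries stood apart from the other three of their group in 5 of 174 groups tested (87 named genes with EVs and with OGN), where chance alone gives about 1 in 20 groups. The gap to the nearest library, as a share of the range of the group, was 0.883 for Adamts7 in the EVs library of mouse 3, which was the highest at 64.6 CPM. It was 0.842 for Clic5 in the EVs library of mouse 4, the lowest of its group, and 0.867 for Dusp5 in the same library, which was the highest. With OGN, Slc2a1 was lowest in mouse 1 (0.938) and Chac1 was lowest in mouse 3 (0.956), in groups whose range was small.

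The OGN minus EVs difference of 41 of the 87 named genes differed between CCL206 and Epcam+ cells by the interaction term (edgeR's quasi-likelihood test, adjusted p under 0.05), compared with 5.79% of all genes tested. Most of these genes were named because they differed in CCL206 cells, so the share is no independent result. On the log2 scale the difference was more positive in CCL206 for Lcn2 (1.11), Adamts7 (0.95), Npr3 (0.98), Syt7 (1.26), Slc7a11 (1.36), Slc7a2 (2.09), Ceacam1 (1.39), Il33 (0.71), Lox (1.08), Muc4 (2.58), Ikbke (0.83), Epas1 (1.35), Tnc (1.61), Fgf7 (0.64), Serping1 (0.94), Lama4 (1.37), Clic5 (1.51), Bmpr2 (1.26), Zfp292 (0.63), Tgfbr1 (0.98), Wnt7b (1.83), Cxcl12 (0.73), Fgf2 (1.27) and Wnt5a (0.95). It was more negative for Cebpb (-2.73), Ier2 (-1.74), Plau (-1.58), Igfbp7 (-0.90), Ccn1 (-1.80), Hbegf (-1.16), Gadd45g (-1.65), Dusp5 (-0.95), Ccl9 (-1.13), Rps21 (-2.27), Tpm1 (-0.92), Myc (-0.76), Cox6a1 (-1.69), Phgdh (-0.98), Aurka (-1.15), Sod1 (-1.36) and Cdk1 (-0.86). Without mouse 2, 3 of all genes tested passed this test.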

How the results depend on the processing

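The count of genes called moved with most choices. Against 923 genes in the paired fit, no replicate block (mouse left out of the pairing) gave 1402, all 16 CCL206 libraries 4410, DESeq2 2239, limma voom 1677, the length trend taken out 1528, and mice 2 and 4 alone 5949. RLE factors, no filter, a minimum of 10 counts and mice 1 and 3 alone gave 891 to 916. Leaving out 1 mouse gave 20 to 1825 genes. Chosen after seeing the data, the trend on coding length taken out gave 1578, and the length trend taken out without 1 mouse gave 103 to 1901. The cause was not tested. Calls lost without the block were those of Cxcl1, Ptgs2, Junb, Gclc, Rspo3, Timp1 and 3 mitochondrial genes, of 81 named genes called.

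The interaction count, 684, was 2044 with DESeq2 and 3 to 1211 with 1 mouse left out. The AT2 level difference was -0.060 to 0.31 with 1 mouse left out, negative (-0.060) without mouse 3, and 0.35 with the length trend taken out. Signs also turned for Zfp292 (0.62, chosen after its value was seen), at -0.039, and Cxcl12, at 0.12, with coding length. Wnt5a turned in mice 1 and 3 (-0.027), with the length trend taken out (-0.11) and in that fit without mouse 1 to 4 in turn (-0.13, -0.069, -0.10 and -0.18). Counts of 2 to 28 per EVs library limit Wnt7b and Muc4, and 4 mice with unequal length trends limit the calls in general.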

Other observations

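Immediate early genes, which are transcribed within minutes of a growth factor or stress signal, were lower with OGN than with EVs more often than higher. The list was drawn up after the values had been seen, so its count is a description. Of 31 tested, 11 were lower and none was higher, with a median log2 fold change of -0.30 against 0.01 over all genes and 4.27% of all genes called lower. In mice 1 and 3 alone 18 were lower. Gadd45g, a stress-induced growth regulator, stood at 31.0, 55.2, 30.6 and 55.2 CPM with EVs and at 10.8, 8.66, 13.7 and 14.1 CPM with OGN (log2 -1.82 ± 0.26, adjusted p = 0.0138). Egr2, a zinc finger factor, stood at 36.8, 31.0, 24.9 and 19.2 CPM with EVs and at 12.8, 14.2, 6.40 and 8.73 CPM with OGN (log2 -1.43 ± 0.22, adjusted p = 0.0188). Egr3, a related factor, had means of 68.3 ± 14.2 and 31.2 ± 5.13 CPM (log2 -1.10 ± 0.16, adjusted p = 0.0178). The groups did not overlap for these genes.

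The transcription factor Myc (log2 -0.88 ± 0.15, adjusted p = 0.0232) and the AP-1 subunit Junb (-0.86 ± 0.15, adjusted p = 0.0265) were lower by smaller amounts. Dusp5, a nuclear phosphatase of ERK, had means of 45.5 ± 11.7 and 21.0 ± 2.61 CPM (log2 -1.07 ± 0.16, adjusted p = 0.0187). In vehicle, Egr2 stood at 51.5 and 49.8 CPM in mice 1 and 2 and at 10.9 and 15.0 CPM in mice 3 and 4, and Egr3 at 145, 125, 48.3 and 58.5 CPM, so vehicle cultures already differed between the mice.

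Counts for 4 other lists follow, against 3.63% of all genes tested called higher and 4.27% called lower. For ER folding and the unfolded protein response, 1 of 21 was higher and none was lower. For sterol and fatty acid synthesis 1 of 22 was higher and none was lower, and for glucocorticoid response genes 1 of 11 was lower and none was higher. Of the 17 alveolar fibroblast markers only 9 were tested, of which 2 were lower and none was higher.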
